A study of Mus musculus with 8 samples.

Results

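The laminin chains were followed in ID8 IP2, a line derived from the surface epithelium of the mouse ovary, with and without an active form of Notch3. Members were the rows of the deposited count tables whose symbol was that of an alpha chain (Lama1 to Lama5), a beta chain (Lamb1 to Lamb3) or the gamma1 chain (Lamc1), which gave 9 of the 23284 symbols listed. The study asked how an active Notch3 signal alters ovarian tumor cells, and sequenced polyadenylated RNA from 8 cultured lines. Notch3IC cells carried a lentiviral pCCL construct that encodes the HA-tagged intracellular domain of Notch3 followed by IRES-GFP, and Control cells carried the empty pCCL vector. The methods describe the ID8 IP2 cells as also infected with a vector for luciferase and mCherry. They add that testing done afterwards pointed to mycoplasma in all ID8 IP2 lines during the experiments. Its part in the values below was not tested. Each of Sets 1 to 4 held 1 Notch3IC and 1 Control line from a separate infection, so that n = 4 per group and each line was sequenced once. The p-values measure the spread between these infections of a single parental line. Library totals were 24910528, 19013578, 23601232 and 28208072 counts in Control Sets 1 to 4, and 22980440, 15524262, 25344051 and 27107061 in Notch3IC Sets 1 to 4.

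Laminins are the large cross-shaped proteins on which basement membranes are assembled. Each is a trimer of an alpha, a beta and a gamma chain that fold together inside the cell, and its name lists the chains in that order, so that laminin-511 holds alpha5, beta1 and gamma1. The alpha chain carries the domains bound by integrins and dystroglycan, while the short arms of the chains polymerize into a sheet. The alpha4 chain lacks most of the short arm and is typical of vessels, muscle and fat. The alpha5 chain is full length and widespread in adult epithelia. In epithelial tissues laminins form the layer that separates cells from the stroma.

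Promoters from the RefSeq table on GRCm38.p6 were matched for 5 of the 9 chains, and not for Lama1, Lama3, Lama4 and Lamc1. Those of Lama5, the alpha chain with the largest count, and of its abundant beta partners Lamb1 and Lamb2 are shown because Notch works through a DNA-binding partner that recognizes TGGGAA. Capitals mark TGGGAA, or the E-box CACGTG bound by Hey repressors, on either strand. Each sequence is the 250 bases before the annotated start, 5' to 3' along the gene's own strand. Lama5 is read from the minus strand at chr2:180225860-180226109. Lamb1 is read from the plus strand at chr12:31265043-31265292, and Lamb2 from the plus strand at chr9:108479612-108479861.
Lama5: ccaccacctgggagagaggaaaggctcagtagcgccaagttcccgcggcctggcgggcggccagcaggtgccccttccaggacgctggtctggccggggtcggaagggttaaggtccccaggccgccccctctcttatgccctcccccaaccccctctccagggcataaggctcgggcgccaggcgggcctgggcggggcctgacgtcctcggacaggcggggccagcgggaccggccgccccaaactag
Lamb1: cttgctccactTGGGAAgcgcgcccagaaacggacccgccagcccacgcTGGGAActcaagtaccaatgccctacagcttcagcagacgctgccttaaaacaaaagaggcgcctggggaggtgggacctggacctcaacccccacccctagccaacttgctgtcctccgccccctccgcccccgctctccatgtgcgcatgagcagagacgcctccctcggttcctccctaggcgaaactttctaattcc
Lamb2: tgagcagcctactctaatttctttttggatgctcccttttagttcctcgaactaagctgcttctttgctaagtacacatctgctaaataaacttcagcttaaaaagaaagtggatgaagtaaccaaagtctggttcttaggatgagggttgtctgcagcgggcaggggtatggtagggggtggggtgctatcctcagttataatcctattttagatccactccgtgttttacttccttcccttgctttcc
Lamb1 held TGGGAA at 239 and 201 bases before the start. Of the matched chains not printed, Lama2 held it at 21 bases, and Lamb3 at 213 and 165 bases in its 2 annotated windows, so that 3 of the 5 chains had a match. No such letters stood in the windows of Lama5 and Lamb2, which says only that they are not in these bases. TGGGAA was found in 25.6% and CACGTG in 7.15% of all 32851 promoter windows of 300 bases, which run to 50 bases past the start. The longer form GTGGGAA was found in 6.38% of all windows and in no window of the matched chains. The Lama5 sequence was 72.4% G and C with 19 CpG pairs, Lamb1 62.0% with 14, and Lamb2 43.6% with 3.

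The labels were first checked on Notch3 itself. Normalized counts, which are counts divided by the library's effective size and scaled to a common depth, were 38.7, 40.6, 70.8 and 42.0 for Notch3 in Control Sets 1 to 4 and 4321, 467, 9219.8 and 5842 in Notch3IC Sets 1 to 4. Every Notch3IC line was above every Control line, and the rise was smallest in Set 2. The log2 ratio of Notch3IC to Control was 6.79, 3.51, 7.01 and 7.10 in Sets 1 to 4. Hey1 and Heyl, transcription factors induced by Notch, also rose, Hey1 by a log2 fold change of 7.35 and Heyl at least 1113-fold against a floor of 3 counts per library. Nrarp, another Notch target, was at 7.34, and 79.4% of its exon bases overlap a gene on the opposite strand. Set 2 also had the lowest ratio for Lama1, Lama4 and Lamb1, given with those chains, and the part of the smaller Notch3 rise in them was not tested.

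Of the 9 chains, 7 passed the filter on low counts and were tested across all 12430 expressed genes with edgeR. To be called, a gene had to pass an adjusted p of 0.1 and differ by 1 or more on the log2 scale. In the fit on condition alone, 1 laminin chain was called higher in Notch3IC cells (Lama4) and 0 were called lower. An unadjusted p under 0.05 was reached by 3, with Lama1 and Lama4 higher and Lama5 lower, and by 18.4% of all genes tested. Among all genes tested, 3.4% were called higher and 0.74% lower. With the matched set as a block, Lama1 and Lama4 were called higher and Lama5 lower, against 5.19% of all genes higher and 2.53% lower. DESeq2, without the block, also called Lama1 and Lama4 higher (5.05% of all genes) and Lama5 lower (1.37% of all genes). The median log2 fold change of the 7 chains was 0.00, beside -0.01 for all genes. None of the 7 separated the groups completely, whereas 7.08% of all genes had every Notch3IC library above every Control library and 3.75% had every one below.

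**Figure D1:**
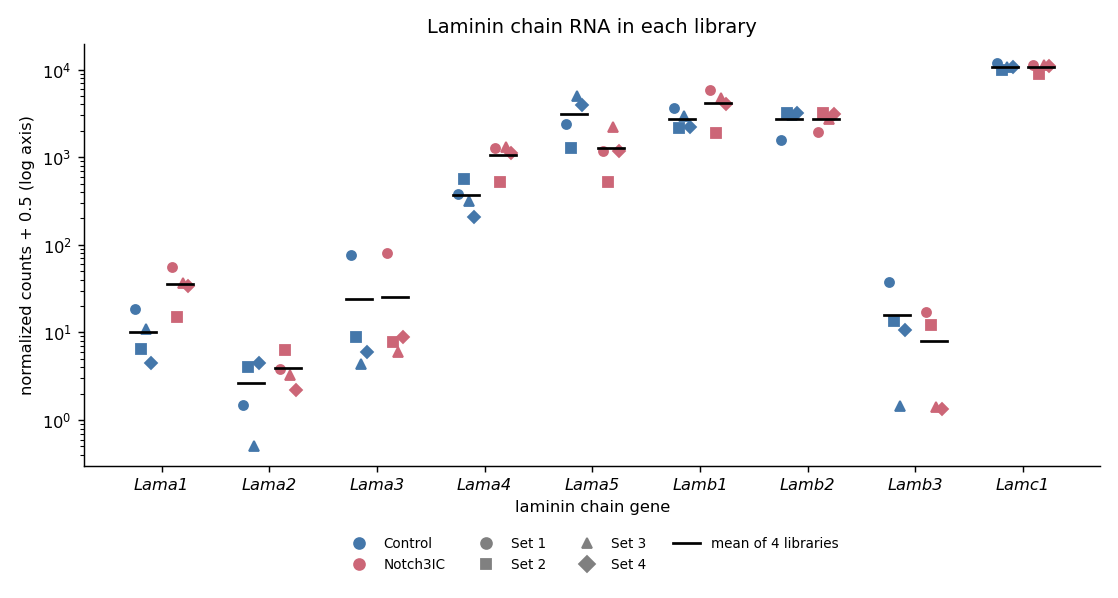
Normalized counts (plus 0.5, log axis) of the 9 laminin chain genes in each library, with Control in blue, Notch3IC in red, a marker shape for each set and a black line at the mean of 4 libraries. Lamc1 lies between 8934 and 11839 in all 8 libraries, Lama4 is higher and Lama5 lower in most Notch3IC libraries, and Lama1, Lama2, Lama3 and Lamb3 stay below 100.

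Lama4, which encodes the truncated alpha4 chain and lies on chromosome 10 of GRCm38 from 38965515 to 39110188 on the plus strand, rose. Its normalized counts were 376, 566, 316 and 205 in Control Sets 1 to 4 and 1274, 522, 1295 and 1105 in Notch3IC Sets 1 to 4. The Notch3IC lines of Sets 1, 3 and 4 were all above every Control line, and the groups overlapped only through Set 2, where the Notch3IC line was slightly below its Control. The mean went from 366 ± 151 to 1049 ± 362 (SD, n = 4), a log2 fold change of 1.52 (SE 0.36, 95% interval 0.70 to 2.35, adjusted p = 0.0606 in edgeR). Set by set the log2 ratio was 1.76, -0.12, 2.03 and 2.43, and the fit with the set block gave 1.56 (SE 0.43, adjusted p = 0.068). In that first fit the call was lost when the Notch3IC library of Set 1, 3 or 4 or the Control library of Set 3 or 4 was left out, and in both fits without Set 1, 3 or 4 as a whole. Over the 12 fits on condition that left out a library or a set, the log2 fold change stayed between 1.30 and 2.04, and the adjusted p between 0.00707 and 0.415. In these bulk lines, a change in how many cells make a chain and a change in RNA per cell cannot be told apart.

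Lama5, which encodes the full-length alpha5 chain and lies on chromosome 2 of GRCm38 from 180176373 to 180225859 on the minus strand, fell within the sets. Its normalized counts were 2383, 1263, 5000.1 and 3910.1 in Control Sets 1 to 4 and 1164, 522, 2232 and 1189 in Notch3IC Sets 1 to 4. Each Notch3IC line was below its own Control, yet the sets differed in level so much that the Notch3IC line of Set 3 exceeded the Control line of Set 2. The mean went from 3139 ± 1648 to 1277 ± 708 (SD, n = 4). The log2 ratios of -1.03, -1.27, -1.16 and -1.72 lay close together, and the fit with the set block called the fall at a log2 fold change of -1.30 (SE 0.12, adjusted p = 0.00874). That call held without each set in turn, at adjusted p of 0.0992, 0.00246, 0.0564 and 0.0224 without Sets 1, 2, 3 and 4. On condition alone the estimate was the same, -1.30 (SE 0.50, 95% interval -2.45 to -0.14), and the adjusted p of 0.215 did not pass.

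Lama1 encodes the alpha1 chain, the alpha chain of the early embryo. It was called higher with the set as a block and by DESeq2, but not in the edgeR fit on condition alone. Its raw counts were 18, 5, 11 and 5 in Control Sets 1 to 4 and 49, 10, 39 and 40 in Notch3IC Sets 1 to 4. The Notch3IC line was the higher one in every set, and the groups overlapped because the Notch3IC line of Set 2, at 14.7 normalized counts, lay below the Control line of Set 1, at 17.8. The log2 ratios were 1.59, 1.23, 1.72 and 2.94. The block fit gave 1.92 (SE 0.33, adjusted p = 0.0293) and the fit on condition alone 1.86 (SE 0.54, adjusted p = 0.106). Without Set 1, 3 or 4 the block fit no longer called it.

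The remaining alpha chains, Lama2 and Lama3, did not pass the filter on low counts and were not tested in the main edgeR fit or the block fit. Lama2, the alpha2 chain of muscle and nerve, had 1, 3, 0 and 5 counts in Control Sets 1 to 4, and 3, 4, 3 and 2 counts in Notch3IC Sets 1 to 4. Those values overlap throughout. Lama3, the alpha3 chain of the epidermis, had 77, 7, 4 and 7 counts in Control and 71, 5, 6 and 10 in Notch3IC. Both lines of Set 1 stood far above the other 6, and within Set 1 the conditions were nearly equal. Exon bases shared with a gene on the opposite strand made up 3.86% of Lama2 and 1.83% of Lama3, and the strandedness of the counts is not given in the sources used here. The other 7 chains shared no exon bases with another gene.

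Among the beta chains, which pair with the alpha chain in the coiled-coil arm, none was called in either fit. Lamb1 (beta1) had normalized counts of 3667, 2176, 2981 and 2183 in Control and 5869, 1877, 4771 and 4014 in Notch3IC Sets 1 to 4. The Notch3IC line was higher in Sets 1, 3 and 4 and lower in Set 2. The log2 fold change was 0.59 (SE 0.33, 95% interval -0.16 to 1.34, adjusted p = 0.39), and 0.51 (SE 0.18, adjusted p = 0.115) with the set block.

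Lamb2 (beta2), the beta chain of synapses and the kidney filter, had 1563, 3222, 3067 and 3183 in Control and 1953, 3205, 2695 and 3144 in Notch3IC. Both lines of Set 1 were low, and the conditions overlapped in full. Its log2 fold change was 0.00 with a 95% interval of -0.57 to 0.56 (adjusted p = 0.996). Lamb3 (beta3), a partner of alpha3 in the skin, had 37, 11, 1 and 13 raw counts in Control and 15, 8, 1 and 1 in Notch3IC. Set 3 had a single count in each line and shows no direction. The log2 fold change was -1.09 (95% interval -3.50 to 1.33, adjusted p = 0.653) on condition alone, -0.18 with the Control line of Set 1 left out, and -1.97 with the Notch3IC line of Set 1 left out. The set block gave -1.13 (adjusted p = 0.167), and -1.49 (adjusted p = 0.0761, a call) without Set 2.

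Lamc1 encodes gamma1, the gamma chain of nearly all laminins outside the epidermis, and was the steadiest member. Its normalized counts were 11839, 9963, 10661 and 10613 in Control Sets 1 to 4, and 11246, 8934, 11311 and 10920 in Notch3IC Sets 1 to 4. The groups overlapped. The log2 fold change was -0.02 with a 95% interval of -0.27 to 0.23 (adjusted p = 0.948), so a change as large as the limit of 1 lay outside the interval. Lamc3 (gamma3), outside the member list, was not tested, at means of 2.27 ± 2.23 and 2.12 ± 0.867 normalized counts.

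**Figure D2:**
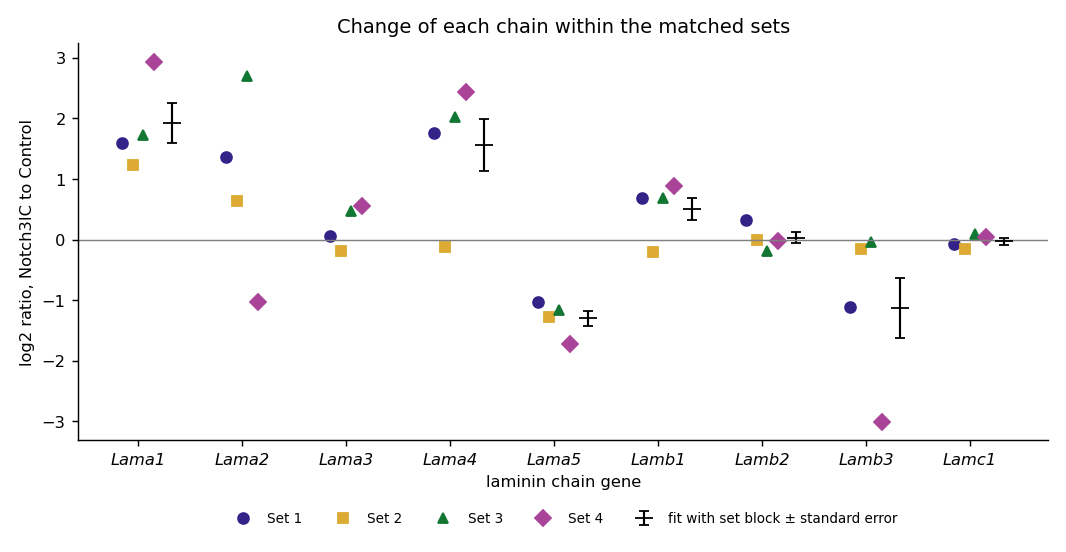
Log2 ratio of Notch3IC to Control within each matched set for the 9 chains (coloured markers), with the estimate and standard error of the fit that has the set as a block (black) for the 7 tested. All 4 ratios of Lama5 lie between -1.72 and -1.03 and all 4 of Lama1 above 1, while Lama4 and Lamb1 are below 0 only in Set 2.

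To set the chains beside each other, normalized counts were divided by the gene's exon length in kb, taken as the union of its annotated exons. On this per-kb level, the order in Control cells was Lamc1 (1302 ± 94.4), Lamb2 (454 ± 132), Lamb1 (277 ± 72.3), Lama5 (276 ± 145), Lama4 (30.3 ± 12.5), and then Lamb3, Lama3, Lama1 and Lama2 at 2.31 or less (SD, n = 4). The libraries of Lamb2, Lamb1 and Lama5 overlapped, and in Set 1 Lamb1 was above Lamb2, at 369.7 against 257. Lamb3, Lama3 and Lama1 overlapped as well, while Lama2 was below every library of Lama3 and of Lama1. Notch3IC cells gave Lamc1 (1282 ± 136), Lamb2 (452 ± 95), Lamb1 (417 ± 170), Lama5 (112 ± 62.1), Lama4 (86.9 ± 30.0) and Lama1 (3.59 ± 1.70), with Lama3, Lama2 and Lamb3 at 2.34 or less. Here Lamb2 overlapped Lamb1, Lamb1 overlapped Lama5 and Lama5 overlapped Lama4. The order of Lama4 and Lama5 in Notch3IC cells also depends on the length used, since the exon union of Lama4 is 12068 bases and its longest transcript 6046, while both are 11388 for Lama5. The order of Lamb1 and Lamb2 turns too, since the longest transcript gives Lamb1 57.3% and Lamb2 42.6% of the beta chain level in Notch3IC cells, where the exon union gives 46.7% and 53.1%.

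Summed per class, alpha chain RNA was the smallest and gamma1 the largest. The alpha sum was 249, 159, 467 and 362 per kb in Control and 221, 91.6, 308 and 200.4 in Notch3IC Sets 1 to 4, lower in Notch3IC cells in every set although the groups overlapped. With the longest transcript as length, an alternative chosen after seeing the data, Set 1 turned, from 281 in Control to 327 in Notch3IC, and the other 3 sets were still lower. The beta sum was 632, 751, 805 and 745 per kb in Control and 915, 718, 924 and 922 in Notch3IC Sets 1 to 4. It was higher in Notch3IC cells in Sets 1, 3 and 4 and lower in Set 2, with either length. Neither sum was tested.

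**Figure D3:**
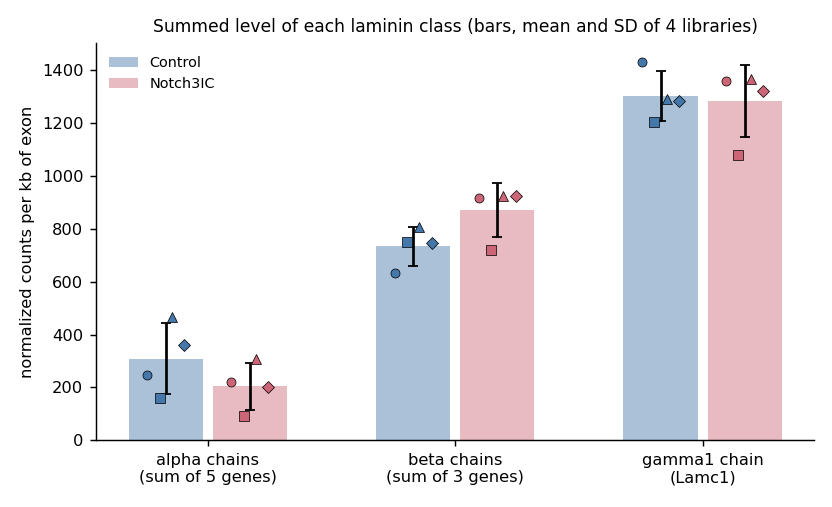
Summed level per kb of exon of the 5 alpha chains, the 3 beta chains and Lamc1, with bars for the mean, error bars for the SD of 4 libraries and points for the libraries (circle, square, triangle and diamond for Sets 1 to 4). The alpha sum is below the beta sum and the beta sum below Lamc1 in all 8 libraries.

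The make-up of the alpha chains differed between the conditions, with less Lama5 and more Lama4 in Notch3IC cells. Lama4 made up 12.5, 29.4, 5.61 and 4.71% of the alpha chain level per kb in Control Sets 1 to 4 and 47.8, 47.2, 34.9 and 45.7% in Notch3IC Sets 1 to 4. Lama5 made up 83.9, 69.6, 94.1 and 95% in Control and 46.3, 50, 63.7 and 52.1% in Notch3IC. These shares did not overlap between the groups for either chain. Lama4 and Lama5 gave nearly all of the alpha chain level, so each share nearly fixes the other. Both restate the balance of these chains, whose own normalized counts overlapped between the groups. In Set 2 the shares moved through Lama5, whose log2 ratio was -1.27 there beside -0.12 for Lama4. The mean Lama4 share went from 13.1 ± 11.4% to 43.9 ± 6.07% and the mean Lama5 share from 85.6 ± 11.8% to 53.0 ± 7.52% (SD, n = 4). With the longest transcript as length, the Lama4 share was 21.8% in Control and 60.7% in Notch3IC cells, and the Lama5 share 77% and 37.1%. Without the Control library of Set 2 the mean Lama4 share in Control was 7.6%. Lama1 reached 1.79 ± 0.565% in Notch3IC cells, from 0.368 ± 0.272%. The beta chain shares overlapped between the groups, with Lamb1 at 38.6 ± 13.7% in Control and 46.7 ± 16% in Notch3IC cells.

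**Figure D4:**
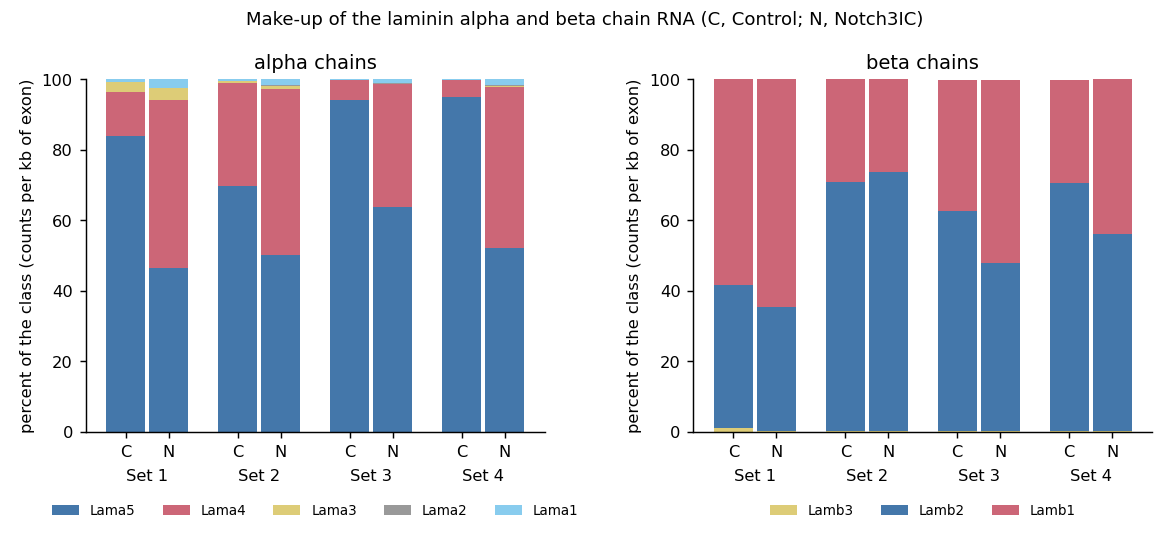
Percent of the alpha chain level (left) and of the beta chain level (right) given by each gene in each library, from normalized counts per kb of exon, with Control (C) and Notch3IC (N) side by side for each set. Lama4 takes at most 29.4% of the alpha chain level in Control libraries and at least 34.9% in Notch3IC libraries, while Lamb1 takes its largest beta chain share in both libraries of Set 1.

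The balance between chains was tested as the log2 ratio of one chain to another within each library, which needs no length to be compared between groups. The log2 Lama4/Lama5 ratio was -2.75, -1.24, -4.07 and -4.33 in Control and 0.05, -0.08, -0.87 and -0.19 in Notch3IC Sets 1 to 4. Every Notch3IC library was above every Control library. The difference was 2.82 on the log2 scale and positive in 4 of 4 sets, at 2.79, 1.16, 3.20 and 4.14. A two-sided exact permutation test gave p = 0.0286, the smallest value that 4 against 4 libraries allow, and 0.0857 after Benjamini-Hochberg adjustment over the 6 pairs compared, which does not pass 0.05. With 6 pairs, at least 4 would have to reach that smallest value for any to pass.

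The Lama1/Lama5 ratio differed by 3.18 with the same exact permutation p of 0.0286 (adjusted 0.0857) and was positive in 4 of 4 sets. Both ratios share Lama5, so they are not independent. The Lama1/Lama4 ratio differed by 0.35, positive in 2 of 4 sets, at an exact permutation p of 0.543. For Lamb1/Lamb2 the ratio was -0.69 ± 0.84 in Control and -0.21 ± 0.99 in Notch3IC cells, a difference of 0.48 that was positive in 3 of 4 sets (exact permutation p = 0.486, adjusted 0.543). The ratios of Lamb1 and of Lamb2 to Lamb3 differed by 1.60 and 1.12, at exact permutation p of 0.229 and 0.514. Matched by set, the sign-flip test cannot go below 0.125 with 4 sets, and it gave that value for both ratios to Lama5.

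**Figure D5:**
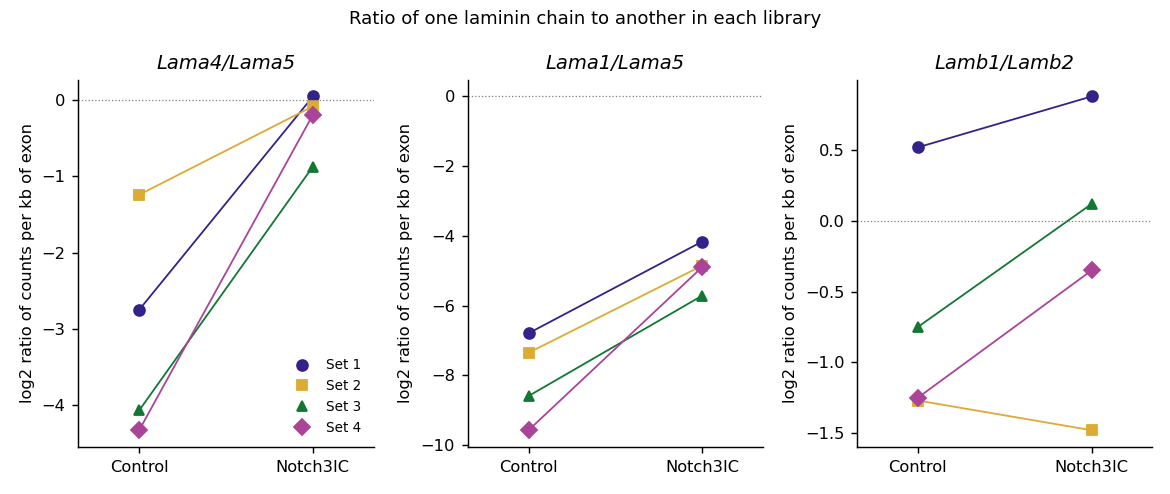
Log2 ratio of normalized counts per kb of exon for 3 chain pairs in each library, with lines joining the Control and Notch3IC line of a set. All 4 lines rise for Lama4/Lama5 and Lama1/Lama5, and 3 of 4 rise for Lamb1/Lamb2.

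Which trimers the RNA allows was read from the least abundant chain of each, on the per-kb level. Laminin-511 and laminin-521 had the highest such level in Control cells, at 210.2 ± 77.7 and 276 ± 145, and both were at 112 ± 62.1 in Notch3IC cells. These levels were not tested beyond the chains themselves. Lama5 was the least abundant chain of laminin-521 in all 8 libraries and of laminin-511 in 6, with Lamb1 the least abundant in the Control lines of Sets 3 and 4. With the longest transcript as length, Lama5 was the least abundant chain of laminin-511 in all 8 libraries, and laminin-511 was at 276 in Control cells, the level of laminin-521. Laminin-411 and laminin-421 were set by Lama4 in all 8 libraries, at 30.3 ± 12.5 in Control and 86.9 ± 30.0 in Notch3IC cells. With that length these became 60.5 and 173, so that laminin-411 was then the higher one in Notch3IC cells.

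The other trimers with gamma1 were low. Laminin-111 and laminin-121 were set by Lama1 at 0.989 ± 0.636 and 3.59 ± 1.70. Laminin-311 and laminin-321 were set by Lama3 at 2.19 ± 3.28 and 2.34 ± 3.37. Laminin-211 and laminin-221 were set by Lama2 at 0.131 and 0.209. These levels describe RNA, and neither the chains as proteins nor secreted trimers were measured in these libraries.

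Of 13 genes for laminin receptors, 12 were tested. Of these, 4 were called higher and 1 lower, beside 3.4% higher and 0.74% lower among all genes tested. Itga3, the integrin alpha3 subunit that pairs with beta1 to bind laminins with alpha5, was 3699, 3463, 4575 and 5516 in Control and 1078, 2766, 1689 and 1721 in Notch3IC Sets 1 to 4. It fell without overlap by 1.25 on the log2 scale (adjusted p = 0.0488). Bcam, the Lutheran glycoprotein that binds alpha5 alone among the alpha chains, was lower in 4 of 4 sets, with a mean of 784 ± 528 in Control and 284 ± 165 in Notch3IC cells. Its fall was called with the set block (-1.39, adjusted p = 0.02) and not on condition alone (-1.46, adjusted p = 0.221). Without Set 1 or Set 3 the block fit no longer called it, at adjusted p of 0.122 and 0.117 for Bcam.

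Among the receptors that rose was Mcam. Mcam, an adhesion molecule of vessels that binds the alpha4 chain, was 55.5, 21.5, 39.2 and 20.6 in Control and 530.1, 93.8, 567 and 623 in Notch3IC Sets 1 to 4. Its log2 fold change was 3.73 (adjusted p = 0.0247), with no overlap and the smallest rise in Set 2. Itga1, the integrin alpha1 subunit of a collagen and laminin receptor, rose by 3.86 (adjusted p = 0.0266), Itga7, a laminin receptor subunit of muscle, by 2.97 (adjusted p = 0.0837), and the proteoglycan Sdc2 by 1.04 (adjusted p = 0.0442). Itga6, another integrin subunit on this list, had an estimate opposite in direction to that of Itga3, at a log2 fold change of 1.25. It was higher in 3 of 4 sets, lower in Set 2, and did not pass (adjusted p = 0.247). The shared subunit Itgb1 (0.14, adjusted p = 0.821) and dystroglycan, Dag1 (-0.10, adjusted p = 0.851), were not called. With the set block, Sdc4 (-0.49, adjusted p = 0.0306) and Sdc1 (0.43, adjusted p = 0.0502) passed the adjusted p and stayed under the limit of 1. Sdc4 was lower and Sdc1 higher in 4 of 4 sets. The median over the 12 was 0.30. On condition alone, none of the 5 receptor calls held without Set 3 or Set 4, and in the block fit none held without Set 1 or Set 3. On condition alone the adjusted p without Set 4 was 0.43 for Itga3 and 0.297 for Mcam. Leaving out just 1 Control line, that of Set 3 or that of Set 4, also ended each of these calls.

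Of 20 genes for other parts of the basement membrane, 14 were tested, with a median of 0.94. Of these, 5 were called higher and 0 lower, beside 3.4% higher and 0.74% lower among all genes tested. The most abundant of the 20, Sparc, had a log2 fold change of 0.38 (adjusted p = 0.182). The lowest estimates were those of the collagen IV chains Col4a6 and Col4a5, at -0.67 (adjusted p = 0.343) and -0.44 (adjusted p = 0.288) on condition alone. With the set block both passed the adjusted p, at -0.71 (adjusted p = 0.0263) and -0.45 (adjusted p = 0.0275), lower in 4 of 4 sets but under the limit of 1. Hspg2, the proteoglycan perlecan, was likewise lower in 4 of 4 sets, at -0.34 with the block (adjusted p = 0.0687). In the other direction, Sparc at 0.39 (adjusted p = 0.0679), the fibulin Fbln2 at 0.84 (adjusted p = 0.028) and Agrn, the proteoglycan agrin, at 0.30 (adjusted p = 0.0402) also passed the adjusted p with the block and stayed under the limit of 1. Each of these 3 was higher in 4 of 4 sets, and the groups did not overlap for Sparc. Col15a1 and Col18a1, collagens that carry glycosaminoglycan chains, were among those that rose. Col15a1 went from 3.93 ± 2.02 to 2398 ± 1469 normalized counts (log2 fold change 9.16, adjusted p = 0.0116) and Col18a1 from 69.1 ± 19.5 to 1559 ± 941 (4.51, adjusted p = 0.0182). The others were Smoc1, a secreted calcium-binding protein (5.12, adjusted p = 0.0181), the fibulin Fbln1 (1.39, adjusted p = 0.061) and Ntn4, a netrin that binds laminin gamma chains (1.07, adjusted p = 0.0918). With the set block Ntn4 was under the limit of 1, at 0.97. On condition alone, all 5 calls were lost without Set 3 or Set 4, while that of Col15a1 held in the blocked fit without any single set.

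Col4a1 and Col4a2, the collagen IV chains that form the network beside laminin, were called higher with the set block, at 1.58 (adjusted p = 0.0543) and 1.21 (adjusted p = 0.0684). On condition alone they were not called, at 1.84 (adjusted p = 0.109) and 1.41 (adjusted p = 0.141). Without Set 1, 3 or 4 the block fit called neither. The nidogens Nid1 and Nid2, which link laminin gamma1 to collagen IV, were at means of 6.49 normalized counts or less and were not tested. Of 13 genes that build the sugar chain by which dystroglycan binds laminin, 11 were analysed, 10 were tested and 0 were called in either fit, with a median log2 fold change of 0.01 and -0.06 for the most abundant, Pomgnt1 (adjusted p = 0.906). Those at an unadjusted p under 0.05 on condition alone were B3galnt2 (-0.30, adjusted p = 0.17) and the gene listed as B3gnt1 (0.52, adjusted p = 0.0625), both under the limit of 1, and DESeq2 likewise called 0 at that limit. The symbol B3gnt1 was taken as the older name of B4gat1, which shares 85.3% of its exon bases with another gene on the same strand, so its value is uncertain. Gyltl1b was lower in 4 of 4 sets and under the limit with the set block (-0.97, adjusted p = 0.0433).

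The line was checked against markers of cell types. Of 10 markers of ovarian surface epithelium or mesothelium, 9 were analysed and 8 tested. Msln and Upk1b were called lower (-2.60 and -2.19), Krt19, Upk3b and Lrrn4 joined them with the set block, and the median over the 8 was -1.68. Their summed normalized counts were 24709.7, 45032, 71957 and 68699.7 in Control Sets 1 to 4, and 7287, 28415, 25270.3 and 19475 in Notch3IC Sets 1 to 4, with Upk3b the most abundant. As with Lama5, the Notch3IC line was the lower one in each set, and the part of this shift in the laminin results was not tested. Of 4 markers of epithelia in general 1 was tested, Cdh1 (-0.48, adjusted p = 0.764), and Epcam had 2 to 12 counts.

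Of 6 markers of smooth muscle and pericytes, 3 were tested and 2 rose, Cspg4 by 4.20 and Pdgfrb by 5.99. The third, the actin Acta2, was called with the set block (1.45, adjusted p = 0.0362) and not on condition alone (1.24, adjusted p = 0.462). Their summed normalized counts were 33599.6, 11297, 7039 and 2902 in Control Sets 1 to 4, and 77930.1, 19135, 30808 and 24763 in Notch3IC Sets 1 to 4, with Acta2 the most abundant. Of those not tested, Rgs5 had 1 to 4 counts in Control and 3 to 68 in Notch3IC libraries, and Myh11 and Des were at means of 16.2 normalized counts or less. The part of these markers in the Lama4 result was not tested.

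Endothelial cells also express Lama4. Of 6 endothelial markers, Cdh5, Tek and Emcn had at most 2 counts in any library and Vwf 0 to 6. Those tested were Pecam1, the most abundant, with 9 to 30 counts (0.60, adjusted p = 0.487), and Kdr, with 4 to 22 (0.51, adjusted p = 0.679). Among leukocyte markers Ptprc was at 2 counts or less and Cd3e at 0 in all 8 libraries, while Cd68, the most abundant and also present in other cells, had 31 to 150 counts (-0.40, adjusted p = 0.61). Myod1 and Myog of skeletal muscle were at 0 throughout. Csf1r, a receptor of myeloid cells, was called higher among the 7 leukocyte markers (1.52, adjusted p = 0.0719), from 8.67 to 24.7 normalized counts. Of 5 fibroblast markers 3 were tested, and Col1a1, the most abundant, was called higher with the set block and not on condition alone (1.04 with the block, adjusted p = 0.0386). The summed fibroblast markers were 143409, 106174, 80378 and 64668 in Control Sets 1 to 4, and 267163, 131181, 160224 and 193147 in Notch3IC Sets 1 to 4, higher in Notch3IC cells in each set through Col1a1. Dcn went the other way in 4 of 4 sets (-0.53 with the set block, adjusted p = 0.0275, under the limit of 1), Lum and Thy1 had 4 counts or less, and the part of these markers in the laminin results was not tested.

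The genes whose log2 levels followed a chain most closely over the 8 libraries were named as a description, since the libraries share conditions and sets. For Lama4 they were Ulk2 (Pearson's r 0.997), Sppl3 (0.988) and Tmcc1 (0.985). For Lama5 they were Abi1 (0.993), Gca (0.990) and Ccdc117 (0.970), and for Lama1 they were Zbtb38 (0.994), Glrb (0.985) and Rgs16 (0.984).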

How the data were processed

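The authors deposited 1 table of read counts per library. Per the labels and methods, polyadenylated RNA was read single-end, TopHat aligned it to mm9, Cufflinks gave the counts and DESeq the study's own comparison. Versions, annotation and strandedness are not given in the sources used here. The counts were whole and not normalized, and 17359 of 23284 symbols had at least 1.

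The main test was edgeR 4.0.16 (TMM normalization, filterByExpr, robust quasi-likelihood F test) in R 4.3.3 on condition alone, with Benjamini-Hochberg adjustment over 12430 genes and the study's limits (adjusted p under 0.1, log2 fold change of at least 1). A standard error is the log2 fold change divided by the square root of F. The biological coefficient of variation was 26.3%, and 14.1% with the set as a block. The sets are matched infections per the methods, and deviations of same-set libraries correlated at 0.40 to 0.80 (crossed, -0.50 to 0.37). No pair of libraries of the same condition agreed within sampling noise. In simulated counts, log2 changes of 1, 2 and 3 were recovered at 38.2%, 88.9% and 98% for this comparison.

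Ratios within a set used normalized counts plus 0.5, and ratios of chain pairs used raw counts plus 0.5, per kb of exon. Gene lengths and positions come from GENCODE M21 on GRCm38, not the build of the counts. Alternatives were other normalizations, filters, lengths, pseudocount and thresholds, DESeq2 1.42.0, the set block, and leaving out libraries or sets. The chains and gene lists were chosen with earlier results of these data known. The text names all 9 chains, the 4 Notch check genes, the genes of the lists called in either fit and each list's most abundant gene (others were chosen after their values were seen), and for each chain called in either fit the 3 genes closest in log2 CPM. Results for 2 related genes are not reported here.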

Additional observations from a re-analysis of the deposited data

Results flagged for a closer look

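In 48 groups of 4 libraries, 7 held a library whose gap to the nearest of the others was too large a part of the group's range by Dixon's 95% critical value, and chance alone gives about 1 group in 20. Lama3 was 76.3 normalized counts in the Control line of Set 1, where the other Control lines had 3.83 to 8.36, and 79.4 in the Notch3IC line of Set 1, where the others had 5.52 to 8.45. The same Control line had 2.85% of its alpha chain level in Lama3, beside 0.0763 to 0.488% in the others. Lamb2 was low in the Control line of Set 1, at 1563 normalized counts against 3067 to 3222. Lamc1 was low in the Notch3IC line of Set 2, at 8934 against 10920 to 11311. Lama2 took 0.392% of the alpha chain level in the Notch3IC line of Set 2, beside 0.0516 to 0.0929% in the others, on single-digit counts. Lama4 took 34.9% of it in the Notch3IC line of Set 3, beside 45.7 to 47.8% in the others.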

How the results depend on the processing

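Chains called higher (1, Lama4) became 2 (Lama1 added) with upper-quartile normalization, with library totals, with DESeq2 and with the replicate block, 0 at an adjusted p under 0.05, and 0 to 2 with libraries or sets left out, with or without the block. Chains called lower (0) became 1 (Lama5) with DESeq2 and with the block, 0 to 1 with libraries or sets left out, and 1 to 2 in the blocked fits without a set, where Lamb3 was the second, without Set 2. Other listed laminin-system genes called higher (9) ranged from 0 to 12 over the leave-outs and from 1 to 12 over the blocked ones. Those called lower (1) became 2 with DESeq2, with the block and with no fold limit, 0 to 2 over the leave-outs, and 0 to 3 over the blocked ones. Over all genes, 423 higher calls became 708 with DESeq2 and 645 with the block, 75 to 702 without 1 library, 670, 1 and 0 without Sets 2, 3 and 4, and 46, 904, 59 and 129 in the blocked fits without Sets 1 to 4. The 92 lower calls became 192 with DESeq2, 315 with the block, 48 at an adjusted p under 0.05, 210 with no fold limit, 8 to 305 without 1 library, 151, 229, 0 and 0 without Sets 1 to 4, and 23, 426, 22 and 30 in the blocked fits without them. Leaving libraries out leaves fewer samples, and the cause was not tested otherwise. With the longest transcript as length, the shares were 21.8% in Control and 60.7% in Notch3IC cells for Lama4, and 77% and 37.1% for Lama5, and the level set by Lama4 in laminin-411 was 60.5 in Control and 173 in Notch3IC cells. No result reversed its direction past a threshold. The count of 0 chain pairs past an adjusted p of 0.05 says nothing of stability, since 4 or more pairs would have to reach the smallest exact p of 0.0286, and the matched sign-flip test, at 0.125 or more, cannot pass. Counts of 5 or fewer in Lama2 and 18 or fewer in Control Lama1 limit what depth can show.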
